A study of Mus musculus with 18 samples.

Results

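The results below set the response of mouse eosinophils to IL-4 against their response to IFN-γ, in 12 of the 18 libraries of the series. The 12 are the libraries of cells given one of these cytokines alone, together with the unstimulated libraries, and the 6 libraries of cells given heat-killed bacteria were not used. The cells were peritoneal eosinophils of Il5 transgenic mice (strain label C57BL/6, line NJ.1638), enriched by removing cells that bind antibodies to Thy1.2 or B220. Such eosinophils develop under an excess of IL-5. Their unstimulated state may therefore differ from that of eosinophils from an ordinary mouse, which was not tested. Stimulated cells were kept for 18 h with IL-4 at 100 ng/ml or with IFN-γ at 50 ng/ml, and for unstimulated cells no time is stated.

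The deposited counts come in 2 file layouts, called sets here. Libraries titled IFN-γ 1 to 3 share the first layout with unstimulated a to c (the IFN-γ set). Those titled IL-4 1 to 3 share the second with unstimulated d to f (the IL-4 set). A response is the log2 ratio of stimulated to unstimulated libraries within 1 set. The difference is the IL-4 response minus the IFN-γ response, so a positive difference means a gene stood higher after IL-4, relative to its own unstimulated libraries, than after IFN-γ. Stimulus and set coincide, so the 2 cytokine groups are never compared with each other in level, and what a set adds to its own response cannot be told apart from the cytokine. Levels are CPM (counts scaled to a common library total within each set), given in the order of the library titles, and ± after a mean level is the standard deviation (SD) of n = 3 libraries. For a difference, ± is the standard error of the fit.

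Depth and range differ between the sets. Counts on genes per library run from 1562034 to 2419241 in the IFN-γ set, and IL-4 set libraries have 3625036 to 6482289. A count of 3, the floor used here, is 1.12 to 1.99 CPM for the IFN-γ set, and for the other set 0.494 to 0.831 CPM. No gene of the IFN-γ set has more than 4094 counts in any library, whereas counts reach 191131 in the IL-4 set. The most abundant transcripts of the IFN-γ set, among them *Retnla*, *Ccl6* and *Ccl9*, lie close to that limit, and their folds there may be compressed. The 10 most abundant genes take 1.69 to 2.55% of counts per library in the IFN-γ set, and 13.5 to 15.8% in IL-4 set libraries. Some genes named below have near-identical transcripts elsewhere, so that reads may be shared: 13 for *Gclm*, 9 for *Slc7a11*, 8 for *Tapbpl*, 6 for *Cxcr2*, 5 each for *Ldha* and *Rn7sk*, 4 each for *Bcl2a1a*, *Eno1*, *Gbp4*, *Gbp8* and *Pgk1*, 2 each for *Lair1*, *Socs2*, *Sod2* and *Tpi1*, and 21 for *Gm47652*. There is 1 each for *Akr1b8*, *Ass1*, *Fpr2*, *H2-DMb1*, *Isg15*, *Ly6a*, *Ly6c2*, *Oas1a*, *Psme1*, *Psme2*, *Siglecg* and *Stat5b*.

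IFN-γ signals through its receptor chains and the kinases JAK1 and JAK2, and raises interferon regulatory factors, immunity GTPases and antigen presentation genes. IL-4 signals through the IL-4 receptor and JAK kinases to STAT6, and in macrophages it raises Type 2 chemokines, lectin receptors and enzymes of lipid metabolism. SOCS proteins are feedback inhibitors of both routes.

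Replicates separated by stimulus in each set. On the first principal component of the IFN-γ set (64.07% of variance) unstimulated a, b and c lie at -41.7, -38.9 and -29.6 and IFN-γ 1, 2 and 3 at 31.3, 35.1 and 43.8. In the IL-4 set (49.75%) unstimulated d, e and f lie at -12.4, -56.0 and -17.2 and IL-4 1, 2 and 3 at 29.8, 28.4 and 27.4. Unstimulated e stands apart from its replicates: the squared deviation from Poisson counting per gene is 23.4 between d and e and 22.1 between e and f, against 7.74 between d and f. Pearson correlations of log2 CPM within groups run from 0.956 to 0.986. Nothing in the labels says that replicates came from separate animals, so every p-value here measures spread between these samples.

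Marker levels bear on which cells were sampled. The summed CPM of 12 eosinophil markers is 5930.3 ± 935, 5920.4 ± 542, 6664 ± 649.7 and 5994 ± 152 in unstimulated a to c, IFN-γ, unstimulated d to f and IL-4 (*Alox15* highest, and *Epx* too low to test), where *Alox15*, *Ccr3*, *Siglecf* and *Adgre1* are near the count limit of the IFN-γ set, so that its sums may be compressed, with 5 of 11 tested markers higher and 2 lower in the difference. For 10 macrophage and monocyte markers the sums are 2994 ± 499, 3858 ± 281, 25415 ± 625 and 25387 ± 589.5, most of it *Ly6c2*, which is near the count limit in the IFN-γ set. Of the 10, 1 is higher (2 without unstimulated f) and 3 are lower, namely *Csf1r*, *C1qb* and *Marco* (-1.01 ± 0.17, -1.57 ± 0.20 and -3.82 ± 0.17). B and plasma cell markers sum to 271 ± 70.1, 119 ± 42.9, 73.0 ± 28.4 and 127 ± 17.6, and 5 of 6 tested members, including *Cd79b* (difference 2.84 ± 0.49) and *Ms4a1* (2.96 ± 0.52, 2.29 at equal depth), have a called difference, each higher. Neutrophil markers sum to 612 ± 79.1, 729 ± 52.2, 1873 ± 167 and 773 ± 39.4, most of it *Retnlg*, with 4 of 5 tested markers called, each lower, among them *S100a8* (-2.93 ± 0.35). In bulk RNA a change in the share of a cell type cannot be told apart from a change in transcripts per cell. The enrichment removed cells that bind antibodies to Thy1.2 or B220, and the paper describes the remaining contaminants as mostly lymphocytes. Mast cell and basophil markers sum to 8.82, 19.5, 7.61 and 15.6 CPM (2 of 8 tested, difference not called), T and NK cell markers to 6.26, 4.45, 4.88 and 3.58 (1 of 8 tested, difference not called), dendritic cell markers to 8.72, 7.86, 5.90 and 12.9 (2 of 6 tested, difference not called, but 1 called without unstimulated b), and none of 5 mesothelial markers could be tested. Erythroid markers sum to 65.2, 100.4, 98.9 and 83.2 CPM, with 1 of 4 tested markers lower (2 without unstimulated b, c or e or IL-4 3, 3 without IFN-γ 3, and lost without unstimulated a, IFN-γ 1 or IL-4 2).

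Of 10913 tested genes, 1360 (12.5%) have a higher and 1385 (12.7%) a lower difference at an adjusted p under 0.05, the threshold for a call throughout. Counts of gene list members below are to be read beside these shares of all tested genes. A change said to occur with 1 cytokine only, or alone, means that the response to the other was not called, whatever its estimate. IL-4 raised 903 genes (8.27%) and lowered 778 (7.13%), and IFN-γ raised 1291 (11.8%) and lowered 1276 (11.7%). The IL-4 count depends on fitting the 2 sets together: 1681 genes are called in the joint fit and 1092 when the IL-4 set is fitted on its own. A separate fit changes both the spread and the number of libraries behind it, and these were not tested apart. Leaving out IL-4 1 gives 1096. The IFN-γ count drops from 2567 to 1702 without unstimulated a. The difference reaches a factor of 2 for 1013 of the higher and 742 of the lower genes. Without unstimulated e, 2800 genes are called instead of 2745, and 2484 of the original calls keep call and sign.

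Most called differences go with a call in 1 of the 2 responses. For 1225 genes (44.6% of the 2745) only the IFN-γ response is called, for 587 (21.4%) only the IL-4 response, and for 426 (15.5%) neither is called although the 2 estimates have opposite signs. Of 689 genes called in both responses, 432 (62.7%) moved in opposite directions: 225 rose with IL-4 and fell with IFN-γ, and 207 did the reverse. The other 257 moved the same way, 182 up and 75 down, and for 75 of these the sizes differ, with the larger response after IFN-γ in 62. Leaving out IL-4 1 lowers the opposite count from 432 to 285. Across all tested genes the 2 responses have a Pearson correlation of -0.12 and a Spearman correlation of -0.162, and the median difference is 0.05.

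**Figure D1:**
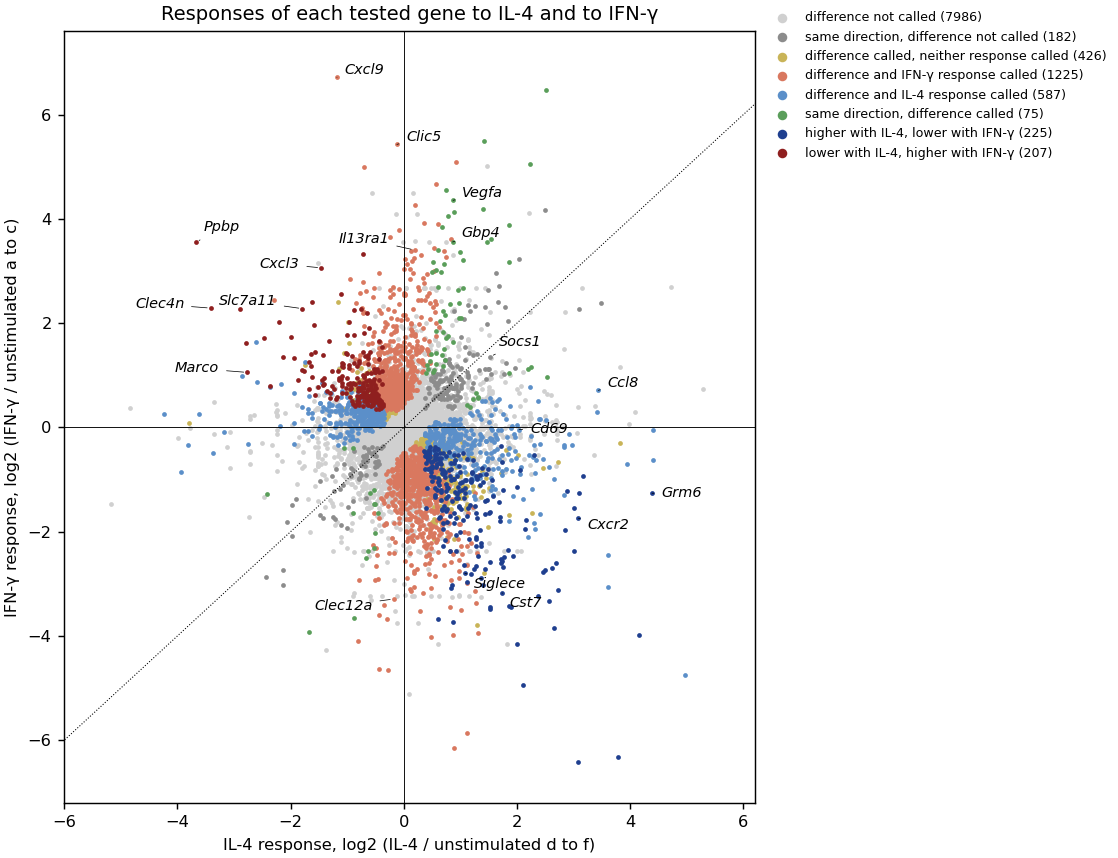
IL-4 response (log2, IL-4 against unstimulated d to f) against IFN-γ response (log2, IFN-γ against unstimulated a to c) for the 10913 tested genes, each point a gene, coloured by whether the difference and the 2 responses were called. The 225 genes raised by IL-4 and lowered by IFN-γ and the 207 with the reverse pattern occupy opposite quadrants.

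Of 14 tested genes of the IFN-γ receptor and its pathway, 3 have a higher and 5 a lower difference, 8 rose with IFN-γ and 9 with IL-4, and the median difference is 0.07 against 0.05 over all tested genes. The list's own median runs from 0.03 without IL-4 3 to 0.11 without IFN-γ 1, and is -0.06 with counts corrected for the count limit and 0.28 without genes near it (3 lower of 11). The ligand-binding chain *Ifngr1* rose 1.48-fold with IL-4, above all 3 unstimulated libraries, and stayed at 0.942-fold with IFN-γ (difference 0.65 ± 0.19, adjusted p = 0.0172), a call lost without IFN-γ 2 (0.54). The second chain *Ifngr2* has no called difference (0.29 ± 0.18), nor has *Jak1* (-0.02 ± 0.15), while *Jak2* rose 1.49-fold with IL-4 alone (0.75 ± 0.17, adjusted p = 0.00296). *Stat2* rose 1.71-fold with IL-4 and 1.32-fold with IFN-γ (0.38 ± 0.16, not called, but called without IFN-γ 3 at 0.48 or without unstimulated e at 0.44), and its partner *Irf9* was not called in either response (-0.02 and 0.12). *Stat2* has no called IFN-γ response without IFN-γ 3 (0.30).

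*Irf8*, a transcription factor of myeloid cells (ENSMUSG00000041515, chromosome 8, 120736358 to 120756694), moved in opposite directions. Its levels are 18.2, 13.4 and 19.1 CPM in unstimulated a to c and 81.3, 52.5 and 59.2 with IFN-γ, against 36.6, 39.5 and 56.1 in unstimulated d to f and 24.7, 28.1 and 34.8 with IL-4. All 3 IFN-γ libraries lie above and all 3 IL-4 libraries below their unstimulated ones, a 3.73-fold rise and a 1.52-fold fall (difference -2.50 ± 0.31, adjusted p = 1.2e-05). *Irf1* rose 4.28-fold with IFN-γ and 1.96-fold with IL-4 (-1.13 ± 0.16, adjusted p = 5.8e-05), and *Irf5* rose 1.52-fold with IFN-γ only (-0.90 ± 0.19). The difference of *Irf1* reached -1.565 in an alternative other than a left-out library. *Irf4* rose 6.47-fold with IL-4 and was 1.11-fold with IFN-γ near the floor, and its difference of 2.55 ± 1.09 is not called (called without IFN-γ 3, 3.61, and 1.45 without unstimulated c). Over the interferon regulatory factors, 3 of 8 tested have a called difference, each lower, with median -0.19. The class I transactivator *Nlrc5* rose 1.63-fold with IL-4 and 2.83-fold with IFN-γ (-0.79 ± 0.21), a call lost in libraries thinned to equal depth (-0.55). The inhibitor *Batf2*, on whose exons the antisense gene *Arl2* overlaps, rose 4.83-fold with IFN-γ only (-2.12 ± 0.45). *Irf8* loses the call of its IL-4 response without any 1 of unstimulated a, c or f, IFN-γ 3, or IL-4 1 or 2 (-0.61 to -0.39) and in other fits.

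Of 15 tested genes of the IL-4 receptor and STAT6 pathway, 5 have a higher and 3 a lower difference, 5 rose with each cytokine, and the median difference is -0.02 (-0.08 without unstimulated d to 0.09 without unstimulated e, -0.06 with floor genes bounded and -0.11 with counts corrected for the count limit). *Il13ra1*, the chain that forms the type II IL-4 receptor with *Il4ra* (ENSMUSG00000017057, chromosome X, 36112110 to 36171259), stands at 5.95, 5.74 and 7.49 CPM in unstimulated a to c and at 51.7, 73.8 and 80.4 with IFN-γ. In the other set it stands at 8.87, 10.9 and 13.1 in unstimulated d to f and 16.7, 10.1 and 11.1 with IL-4, so the IFN-γ libraries lie far above their unstimulated ones and the IL-4 libraries overlap theirs. This is a 10.6-fold rise against 1.14-fold (difference -3.21 ± 0.36, adjusted p = 5.6e-06). The common γ chain *Il2rg* rose 2.84-fold with IFN-γ only (-1.75 ± 0.18), whereas *Il4ra* was called in neither response (-0.07 and 0.21). *Stat6* rose 1.42-fold with IFN-γ and was 0.991-fold with IL-4, a difference of -0.51 ± 0.20 that is not called (called without unstimulated f, -0.66, and under 3 other scalings or fits, -0.55 to -0.51). The docking protein *Irs2* fell 2.09-fold with IFN-γ alone (1.05 ± 0.19), *Batf3* rose 2.27-fold with IL-4 alone (1.68 ± 0.30), and the kinase gene *Tyk2* has a difference of 0.82 ± 0.28 that is lost without any 1 of unstimulated a, b, c or d, IFN-γ 2 or 3, or IL-4 1 or 3 (0.64 to 0.84). *Pparg*, a nuclear receptor of lipid metabolism, was at 3 counts or fewer throughout the IFN-γ set and rose at least 8.36-fold with IL-4. *Stat6* has no called IFN-γ response without unstimulated a (0.45).

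Among feedback inhibitors *Socs1* rose with both stimuli: 449.7, 577 and 507 CPM in unstimulated a to c and 1433, 1278 and 1207 with IFN-γ, 319, 257 and 292 in unstimulated d to f and 798, 775 and 921 with IL-4. All stimulated libraries lie above their unstimulated ones, 2.56-fold and 2.87-fold, and the 95% interval of the difference, -0.22 to 0.55, lies within a factor of 2. *Socs1* is near the count limit in the IFN-γ set, and with corrected counts its difference is -0.18. *Socs3* rose more with IL-4 (2.50-fold against 1.51-fold, difference 0.73 ± 0.19, adjusted p = 0.00983, not called at 0.73 with all 18 libraries in the fit). *Cish* rose 1.46-fold with IL-4 only (0.72 ± 0.17) and *Socs2* fell 2.24-fold with IFN-γ only (1.52 ± 0.22). In the SOCS family 3 of 8 tested have a called difference, each higher (median 0.18, from 0.08 without unstimulated e to 0.30 without IFN-γ 1, and 0.07 with counts corrected for the count limit), and in the STAT family 3 of 7, each lower (median -0.51, -0.33 without unstimulated e, -0.23 without genes near the count limit, and 1 more gene is higher without unstimulated e or IFN-γ 3), among them *Stat3*, 2.44-fold up with IFN-γ (-0.96 ± 0.20). *Stat5b* also counts as lower (-0.88 ± 0.29), but not without any 1 of unstimulated a or e, IFN-γ 1 or 3, or IL-4 1 or 3 (-0.88 to -0.60).

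Guanylate-binding proteins are GTPases that attack the vacuoles of intracellular microbes. All 10 tested members rose with IFN-γ, 5 of the 10 also rose with IL-4, and the median responses are 2.24 and 0.86. The difference is called for 4, each lower, with a median of -1.37, and without unstimulated e the lower count is 7. *Gbp4* (ENSMUSG00000079363, chromosome 5, 105115767 to 105139586) is at 59.1, 65.1 and 70.3 CPM in unstimulated a to c and 742, 748 and 798 with IFN-γ, and at 65.4, 60.6 and 84.7 in unstimulated d to f and 136, 135 and 112 with IL-4. It rose 11.8-fold and 1.82-fold with no overlap in either set (difference -2.69 ± 0.20, adjusted p = 4.5e-08), though its exons overlap *Gbp8* and *Gbp9* on the same strand and reads may be shared. *Gbp8* rose 11.7-fold and 2.79-fold (-2.08 ± 0.30), *Gbp2*, near the count limit, 5.45-fold with IFN-γ (-2.06 ± 0.23, and -3.24 with corrected counts) and *Gbp3* 2.98-fold (-1.34 ± 0.23). *Gbp7* and *Gbp9* responded alike, 2.69-fold and 1.89-fold with IL-4 against 2.17-fold and 1.68-fold with IFN-γ, with differences of 0.31 ± 0.26 (called without unstimulated d, 0.59) and 0.17 ± 0.17.

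Immunity-related GTPases, which act on the same vacuoles, gave 3 called differences among 8 tested, each lower, with 7 raised by IFN-γ and 4 by IL-4 (median difference -1.15). Without unstimulated e, or with counts corrected for the count limit, 5 are lower. *Iigp1* rose 6.19-fold and *Gm4841* 7.30-fold with IFN-γ, and neither was called with IL-4 (0.27 and 0.35), for differences of -2.36 ± 0.28 and -2.52 ± 0.30. *Igtp*, whose exons overlap *Irgm2*, rose with both, 5.13-fold against 1.76-fold (-1.54 ± 0.16, and -2.036 in an alternative other than a left-out library). *Irgm1*, a regulatory member, rose 2.19-fold and 2.002-fold with no called difference (-0.13 ± 0.23). Genes of the type I interferon response lean the other way: 7 of 20 tested have a higher and 1 a lower difference, 3 rose with IFN-γ and 8 with IL-4, and the median difference is 0.32. The antiviral sensors *Ifih1* and *Ddx58* rose 1.86-fold and 1.37-fold with IL-4 only (0.95 ± 0.21 and 0.70 ± 0.16). The ubiquitin-like modifier *Isg15* rose 1.72-fold with IL-4 (0.72 ± 0.19), as did its protease *Usp18* at 1.42-fold (0.48 ± 0.15), whose call is lost without any 1 of IFN-γ 1 or 2, unstimulated f, or IL-4 2 or 3 (0.45 to 0.47). The RNase L activators *Oas1a*, *Oas2* and *Oas3* fell 1.72-fold, 1.54-fold and 1.36-fold with IFN-γ, and *Oas3* rose 1.36-fold with IL-4 (differences 0.93 ± 0.24, 1.00 ± 0.22 and 0.89 ± 0.16). *Ifit2* is the exception, 2.001-fold up with IFN-γ only (-1.07 ± 0.22). *Ddx58* loses the call of its IL-4 response without IL-4 1 (0.42), and *Oas2* has no called IFN-γ response without IFN-γ 1 (-0.45). *Oas3* loses the call of its IL-4 response without IL-4 3 (0.40).

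Of 11 tested MHC class II genes, 7 rose with IFN-γ and 1 with IL-4, and the 7 called differences are lower (median -1.17). A higher difference is also called for 2 without unstimulated f and for 1 without IFN-γ 2 or IL-4 2, and the count of IL-4 rises is 2 without unstimulated f, while the single rise is lost without IL-4 1. The β chain gene *H2-Ab1* is at 84.8, 62.5 and 54.1 CPM in unstimulated a to c and 258, 275 and 265 with IFN-γ, against 223, 329 and 315 in unstimulated d to f and 267, 279.8 and 404 with IL-4. The IFN-γ libraries are all above their unstimulated ones and the IL-4 libraries overlap theirs, 3.94-fold against 1.09-fold (difference -1.85 ± 0.27, adjusted p = 6.2e-05). *H2-Aa* rose 2.59-fold, *H2-Eb1* 2.77-fold and the invariant chain *Cd74* 2.79-fold with IFN-γ (-1.23 ± 0.27, -1.25 ± 0.30 and -1.17 ± 0.29). The peptide exchange factor *H2-DMb1* has a difference of -1.58 ± 0.51, lost without any 1 of unstimulated c or f, IFN-γ 1 or 2, or IL-4 1 or 2 (-1.55 to -1.25). Their transactivator *Ciita* rose 4.14-fold with IL-4 and was not called with IFN-γ (0.41), from means of 0.825 and 3.56 CPM unstimulated, and its difference of 1.64 ± 0.71 is called only without unstimulated f (2.22). *Ciita* has no called IL-4 response without IL-4 1 (1.79).

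Of 21 tested class I presentation genes, 16 rose with IFN-γ and 8 with IL-4, and the 9 called differences are lower (median -0.43). The proteasome activator subunits *Psme1* and *Psme2* rose 1.87-fold and 2.91-fold with IFN-γ and stayed level with IL-4 at 0.994-fold and 1.02-fold (-0.91 ± 0.17 and -1.52 ± 0.22). The peptide trimming enzyme *Erap1* rose 2.17-fold (-1.28 ± 0.20) and the editing factor *Tapbpl* 3.80-fold (-1.30 ± 0.29) with IFN-γ only. The immunoproteasome subunit *Psmb9* has no called difference, 1.96-fold with IFN-γ and 1.96-fold with IL-4. Its neighbour *Tap1*, the peptide transporter, lies antisense to *Psmb9* in part and rose 2.25-fold and 1.62-fold, with a difference of -0.47 ± 0.16 that is lost without any 1 of unstimulated a, c or f, IFN-γ 1, 2 or 3, or IL-4 1 or 3 (-0.49 to -0.40). The chaperone *Calr* fell 1.35-fold with IL-4 (-0.61 ± 0.19), a call lost without unstimulated c, IFN-γ 1 or 2, or IL-4 1 or 2 (-0.59 to -0.54). *Calr* loses the call of its IL-4 response without any 1 of unstimulated e or f, or IL-4 1 or 2 (-0.41 to -0.38) and in other fits.

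Chemokines gave differences of both signs. *Cxcl9*, a ligand of CXCR3 on T cells (ENSMUSG00000029417, chromosome 5, 92321347 to 92328079), is at 1.86, 1.91 and 5.82 CPM in unstimulated a to c and 344, 344 and 364 with IFN-γ, and at 3.05, 3.95 and 4.51 in unstimulated d to f and 0.379, 2.81 and 1.81 with IL-4. It rose 105-fold with IFN-γ, and the IL-4 libraries lie below their unstimulated ones without a call (-1.18), for the most negative difference of those measurable in both sets, -7.90 ± 0.55 (adjusted p = 2.5e-08, and more negative without unstimulated c, at -8.70, or IL-4 2). *Cxcl10* and *Cxcl11*, ligands of the same receptor, rose 1.97-fold and 2.12-fold with IFN-γ only (-0.94 ± 0.23 and -0.86 ± 0.29). The *Cxcl11* call is lost without any 1 of unstimulated b, c or f, IFN-γ 1, 2 or 3, or IL-4 1 or 2 (-0.91 to -0.61). *Ccl3*, a CCR1 ligand, rose 4.78-fold with IFN-γ and fell 1.85-fold with IL-4 (-3.14 ± 0.27, adjusted p = 2.7e-07), and *Ccl5* rose 1.81-fold with IFN-γ (-0.84 ± 0.19). Among 7 tested chemokines of Type 1 responses 5 have a called difference, each lower (median -0.86).

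Of 4 tested chemokines of Type 2 responses, 1 rose with IFN-γ (lost without any 1 of unstimulated a or b, IFN-γ 1, or IL-4 1 or 2) and all 4 with IL-4, and the 2 called differences are higher (median 2.11, and 1.56 with floor genes bounded). *Ccl8*, a ligand of CCR8, went from 14.7, 8.40 and 8.45 CPM in unstimulated d to f to 114, 104 and 115 with IL-4, against 4.09, 5.74 and 9.57 in unstimulated a to c and 11.4, 9.87 and 10.6 with IFN-γ. All IL-4 libraries are above their unstimulated ones by a wide margin, 10.8-fold, and the IFN-γ response of 0.71 is not called (difference 2.73 ± 0.40, adjusted p = 8.6e-05). *Ccl22*, a CCR4 ligand, rose 5.79-fold with IL-4 and 1.96-fold with IFN-γ (1.56 ± 0.45, lost without unstimulated a, 1.40, and 2.22 without IFN-γ 1). *Ccl17*, the other CCR4 ligand, rose at least 9.80-fold with IL-4 from 0.382 CPM, and its difference is called only without IFN-γ 1 or in 2 other fits. The eosinophil attractant *Ccl24* rose 2.87-fold with IL-4 (0.87 ± 0.36, called without unstimulated e, 1.10). *Ccl22* loses the call of its IFN-γ response without any 1 of unstimulated a, b or c, IFN-γ 1, or IL-4 1 or 2 (0.32 to 1.13) and in other fits.

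Of 10 tested monocyte and neutrophil chemokines, 3 have a higher and 5 a lower difference, 5 moved in opposite directions, and the median difference of -0.63 becomes 0.62 when genes near the count limit are left out (2 lower of 7) and -0.37 with corrected counts. The CCR2 ligands *Ccl7* and *Ccl12* rose 2.42-fold and 2.82-fold with IL-4 and fell 1.91-fold and 1.74-fold with IFN-γ (2.21 ± 0.18 and 2.30 ± 0.27, adjusted p = 1.7e-07 and 9.1e-06), each without overlap of libraries. *Ccl2*, which binds the same receptor, rose 1.995-fold with IL-4 only (1.15 ± 0.22). The platelet and neutrophil chemokine gene *Ppbp* is at 4.84, 8.29 and 15.8 CPM in unstimulated a to c and 96.6, 117 and 127 with IFN-γ, and at 72.9, 156 and 65.5 in unstimulated d to f and 7.40, 6.78 and 9.29 with IL-4. It rose 11.7-fold with IFN-γ and fell 12.8-fold with IL-4 in every library (difference -7.22 ± 0.50, adjusted p = 2.5e-08, and -7.86 without unstimulated c). *Cxcl2* did the same at smaller size, 1.79-fold up and 1.65-fold down (-1.56 ± 0.29). The abundant *Ccl6* and *Ccl9* fell 2.002-fold and 1.87-fold with IL-4 (-1.28 ± 0.26 and -1.25 ± 0.25), and their IFN-γ responses (0.28 and 0.35) lie near the count limit. *Ccl12* has no called IFN-γ response without unstimulated c or IFN-γ 2 (-0.75 to -0.53), and *Cxcl2* loses the call of its IL-4 response without any 1 of unstimulated d, or IL-4 1 or 3 (-0.77 to -0.41) and in other fits.

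Among 8 tested chemokine receptors 2 have a higher and 2 a lower difference (median -0.31). *Cxcr2*, which binds *Ppbp* and the *Cxcl2* group (ENSMUSG00000026180, chromosome 1, 74153989 to 74161246), is at 3.88, 2.47 and 4.88 CPM in unstimulated d to f and 27.9, 25.3 and 42.6 with IL-4, and at 30.1, 22.96 and 25.8 in unstimulated a to c and 5.68, 9.35 and 8.64 with IFN-γ. The receptor thus rose 8.50-fold with IL-4 and fell 3.35-fold with IFN-γ, without overlap (difference 4.83 ± 0.41, adjusted p = 2.1e-07), the reverse of the ligands *Ppbp*, *Cxcl2* and *Cxcl3*. *Cxcr4*, which holds leukocytes in the marrow, rose 3.61-fold and 2.06-fold (0.81 ± 0.17). *Ccrl2*, a receptor that binds chemerin without signalling, rose 2.74-fold with IFN-γ only (-1.38 ± 0.17). The eotaxin receptor *Ccr3* fell 1.65-fold with IL-4 and had no called IFN-γ response (-0.91 ± 0.22). *Ccr3* is near the count limit in the IFN-γ set, where a change may be hidden.

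The genes with the smallest adjusted p among those that moved in opposite directions are named here, 6 for each direction. Lower with IL-4 and higher with IFN-γ is *Marco*, a scavenger receptor (ENSMUSG00000026390, chromosome 1, 120474538 to 120505024): 165, 163 and 161 CPM in unstimulated a to c and 344, 323 and 352 with IFN-γ, 204, 170.5 and 208 in unstimulated d to f and 30.7, 27.6 and 27.1 with IL-4. It rose 2.08-fold with IFN-γ and fell 6.80-fold with IL-4, with no overlap in either set (difference -3.82 ± 0.17, adjusted p = 1.6e-10). *Clec4n*, which encodes the fungal receptor Dectin-2 (ENSMUSG00000023349, chromosome 6, 123229843 to 123247021), is at 63.2, 51.03 and 63.7 in unstimulated a to c, 308, 275 and 293 with IFN-γ, 196, 373 and 308 in unstimulated d to f and 29.01, 27.96 and 25.3 with IL-4. The rise is 4.88-fold and the fall 10.6-fold, again in all libraries (difference -5.70 ± 0.27, adjusted p = 2.7e-10). *Cxcl3*, a CXCR2 ligand, rose 8.35-fold from 128 ± 23.3 to 1072 ± 125 CPM and fell 2.75-fold from 127 ± 10.4 to 46.05 ± 2.67 CPM (-4.52 ± 0.20, adjusted p = 1.6e-10). *Prdx1*, *Slc7a11* and *Cyb5a* complete the 6, and *Cyb5a*, an electron carrier of the ER, rose 1.68-fold and fell 3.19-fold (-2.42 ± 0.15, adjusted p = 8.2e-09).

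Higher with IL-4 and lower with IFN-γ is *Cst7*, the cysteine protease inhibitor cystatin F (ENSMUSG00000068129, chromosome 2, 150570415 to 150578944), at 82.9, 93.1 and 62.8 CPM in unstimulated a to c and 9.10, 6.23 and 11.3 with IFN-γ, and at 36.3, 38.2 and 30.6 in unstimulated d to f and 106, 118 and 127 with IL-4. The IL-4 libraries are all above and the IFN-γ libraries all below, 3.34-fold up and 9.05-fold down (difference 4.92 ± 0.28, adjusted p = 2.1e-09). *Serpina11*, a serpin whose exons overlap *Gm28577*, rose 3.30-fold and fell 6.05-fold (4.32 ± 0.27, adjusted p = 8.6e-09). *Specc1*, a coiled-coil protein of the cytoskeleton, rose 2.56-fold and fell 4.65-fold (3.58 ± 0.24). *Mylk3*, a myosin light chain kinase, rose 1.80-fold and fell 8.14-fold (3.87 ± 0.28). *Sytl1*, which tethers vesicles to RAB27, rose 1.52-fold and fell 12.8-fold (4.28 ± 0.33), and the methyltransferase gene *Setdb2* rose 3.24-fold and fell 3.27-fold (3.40 ± 0.26). *Sytl1* loses the call of its IL-4 response without any 1 of unstimulated b, e or f, IFN-γ 1, 2 or 3, or IL-4 1, 2 or 3 (0.53 to 0.70) and in other fits.

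**Figure D2:**
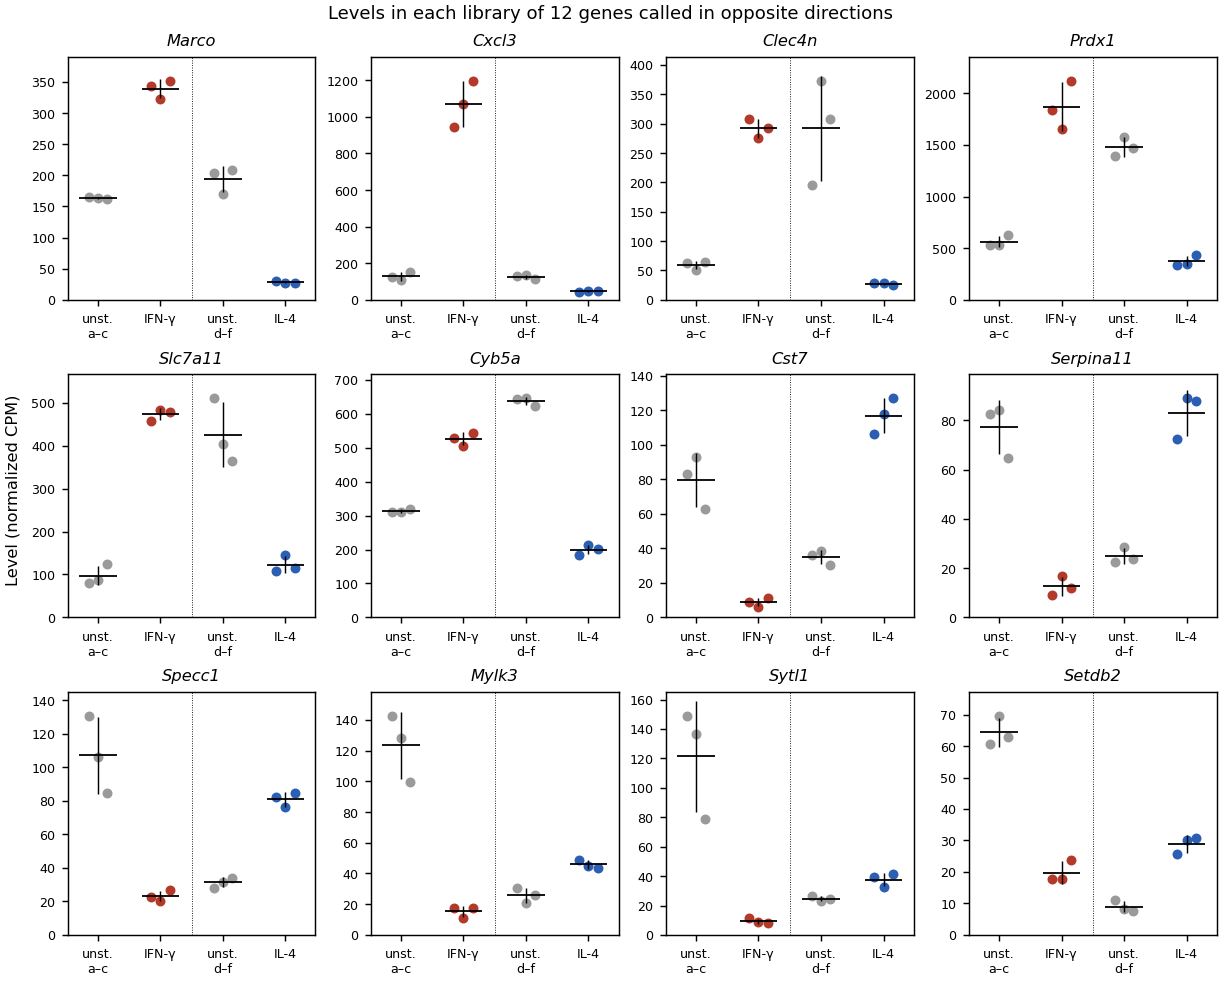
Level in each library (normalized CPM) of the 12 genes with the smallest adjusted p among those that moved in opposite directions, by group. Points are libraries, horizontal bars group means and vertical lines the standard deviation of n = 3, and a dotted line separates the 2 sets, which are not comparable in level. For *Clec4n* the mean goes from 59.3 to 292 with IFN-γ and from 292 to 27.4 with IL-4.

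Antioxidant genes are the list with the most members, by count, that moved in opposite directions, which 432 of all 10913 tested genes did. By share, monocyte and neutrophil chemokines (5 of 10) and B and plasma cell markers (3 of 6) equal them. Of 16 tested NADPH oxidase and antioxidant genes, 9 have a called difference, each lower, 9 fell with IL-4, 8 rose and 1 fell with IFN-γ, and 8 moved in opposite directions (median difference -1.37). The single fall is lost without any 1 of unstimulated b or f, IFN-γ 1, 2 or 3, or IL-4 1, 2 or 3, and without unstimulated e there are 2. *Hmox1*, heme oxygenase 1 (ENSMUSG00000005413, chromosome 8, 75093621 to 75100589), is at 441, 412 and 543 CPM in unstimulated a to c, 1110.2, 1119 and 1313 with IFN-γ, 1110.3, 773 and 1269 in unstimulated d to f and 215, 235 and 266 with IL-4. Every IFN-γ library is above and every IL-4 library below its unstimulated ones, 2.53-fold up and 4.41-fold down (difference -3.48 ± 0.24, adjusted p = 2.3e-08). *Prdx1*, a peroxiredoxin with 2 near-identical transcripts elsewhere, is at 530.4, 531 and 627 and 1838, 1652 and 2119 in the IFN-γ set and 1389, 1581 and 1468 and 338, 351 and 430.3 in the IL-4 set. It rose 3.32-fold and fell 3.97-fold (-3.72 ± 0.19, adjusted p = 9.2e-10, and -4.43 with counts corrected for the count limit). *Txnrd1*, thioredoxin reductase, rose 2.51-fold and fell 3.83-fold (-3.26 ± 0.31), and *Srxn1*, which repairs peroxiredoxins, rose 2.73-fold and fell 2.98-fold (-3.03 ± 0.25). The glutathione synthesis subunits *Gclm* and *Gclc* rose 2.15-fold and 2.11-fold and fell 3.50-fold and 2.42-fold (-2.91 ± 0.21 and -2.35 ± 0.23), and the quinone reductase *Nqo1* rose 1.92-fold and fell 2.66-fold (-2.36 ± 0.25). *Sod2* followed at 1.59-fold up and 1.41-fold down (-1.16 ± 0.17), and catalase, *Cat*, fell 2.27-fold with IL-4 only (-1.59 ± 0.33). The oxidase subunit *Cybb* has no called difference (-0.39 ± 0.18, called without unstimulated b, -0.50). The cystine importer *Slc7a11*, which feeds glutathione synthesis, rose 4.85-fold and fell 3.47-fold (-4.07 ± 0.24, adjusted p = 4.0e-09). *Sod2* loses the call of its IL-4 response without IL-4 1 or 2 (-0.46).

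Of 20 tested glycolysis genes, 19 rose with IFN-γ and 4 with IL-4, and the 15 called differences are lower (median -1.28; 18 lower with counts corrected for the count limit, and 9 of 11 without genes near it). The 4 rises with IL-4 are 7 without unstimulated e, 2 without unstimulated c or d or IFN-γ 2, 1 without unstimulated f or IL-4 2 or 3, and are lost without IL-4 1. The phosphofructokinase gene *Pfkl* (ENSMUSG00000020277, chromosome 10, 77986947 to 78010083) is at 28.3, 25.5 and 31.6 CPM in unstimulated a to c and 222, 230.2 and 257 with IFN-γ, and at 70.7, 101 and 71.4 in unstimulated d to f and 81.7, 78.1 and 104 with IL-4. It rose 8.22-fold with IFN-γ in all libraries, while the IL-4 libraries overlap their unstimulated ones at 1.08-fold (difference -2.93 ± 0.23, adjusted p = 1.1e-07). *Pfkfb3*, which makes the activator of that enzyme, rose 7.76-fold and the transporter *Slc2a1* 5.70-fold with IFN-γ only (-2.80 ± 0.30 and -2.76 ± 0.33). *Tpi1* rose with both, 7.91-fold and 1.42-fold (-2.48 ± 0.23), as did *Eno1* at 2.43-fold and 1.37-fold (-0.83 ± 0.20), and *Ldha* rose 2.64-fold with IFN-γ (-0.95 ± 0.22). The difference of *Ldha* reached -1.477 in an alternative other than a left-out library. *Pgk1* and *Gapdh* rose 5.14-fold and 3.14-fold with IFN-γ (-1.79 ± 0.26 and -1.20 ± 0.32), the former -2.53 with corrected counts and the latter not called without unstimulated d (-0.79) or at equal depth (-0.52). *Gapdh* has 127 near-identical transcripts elsewhere, and its unstimulated mean is 437 CPM in the IFN-γ set but 4.89 in the IL-4 set, which shows how far levels of the sets can differ. *Pdk1*, which keeps pyruvate out of the mitochondrion, responded alike, 2.01-fold with IL-4 and 2.19-fold with IFN-γ (-0.12 ± 0.35). *Tpi1* has no called IL-4 response without any 1 of unstimulated c, d or f, IFN-γ 1 or 2, or IL-4 1, 2 or 3 (0.38 to 0.56) and in other fits, and *Eno1* loses the call of its IL-4 response without any 1 of unstimulated c, d or f, IFN-γ 1, 2 or 3, or IL-4 1, 2 or 3 (0.32 to 0.52) and in other fits. *Pdk1* has no called IL-4 response without IL-4 1 (0.82).

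**Figure D3:**
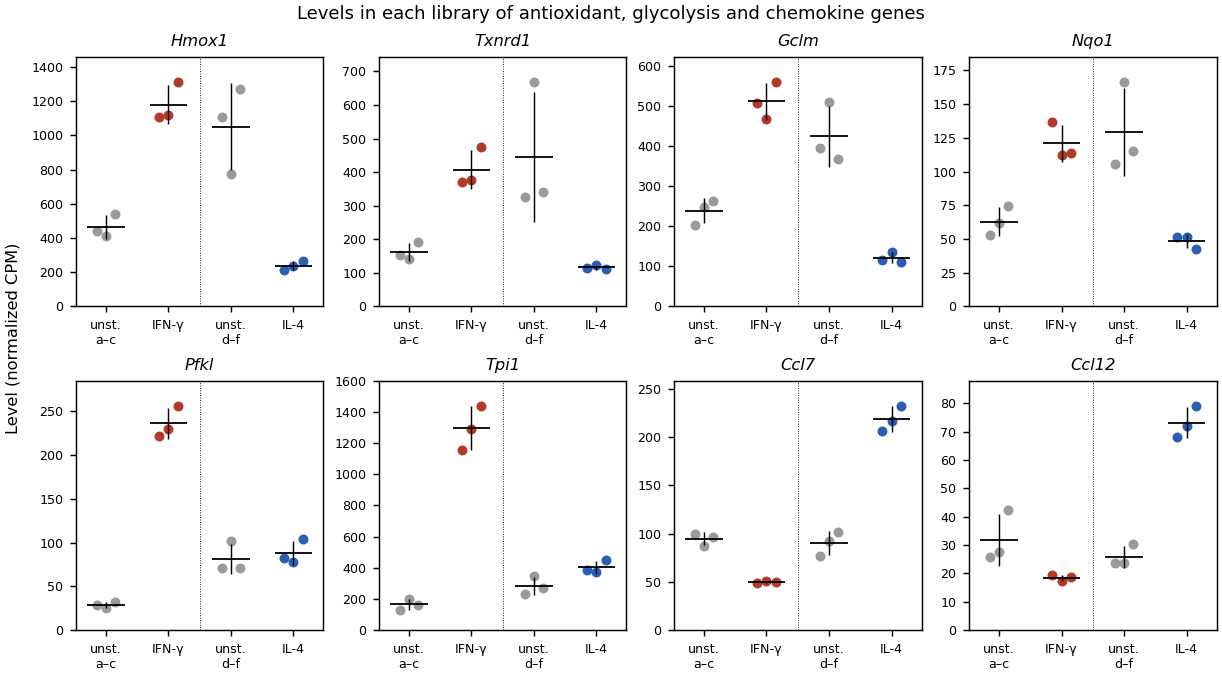
Level in each library (normalized CPM) of 4 antioxidant genes, 2 glycolysis genes and 2 CCR2 ligands by group, with points as libraries, horizontal bars as means, vertical lines as the standard deviation of n = 3 and a dotted line between the sets. *Hmox1* goes from 465 to 1181 with IFN-γ and from 1051 to 239 with IL-4, and *Ccl7* from 94.7 to 49.7 and from 90.1 to 219.

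Of 12 tested polyamine, arginine and amino acid enzymes, 7 have a called difference, each lower, 8 rose with IFN-γ and 2 with IL-4 (1 without any 1 of IFN-γ 1 or 2, or IL-4 1, 2 or 3), and the median is -1.001 (-0.95 with floor genes bounded). *Ass1*, which remakes arginine, rose 4.91-fold with IFN-γ (-3.04 ± 0.50, -3.67 without IL-4 3) along with the arginine transporter *Slc7a2* at 2.68-fold (-1.55 ± 0.24). The serine pathway enzyme *Psat1* rose 2.64-fold and 1.39-fold (-0.93 ± 0.27, lost without unstimulated a, -0.72). Among 14 tested cholesterol synthesis genes 1 has a higher and 4 a lower difference (median 0.23, from -0.19 without IFN-γ 2 to 0.40 without IL-4 2, and 0.14 with floor genes bounded). Without IL-4 2 there are 2 higher. The higher one, *Cyp51*, rose 2.45-fold with IL-4 (0.98 ± 0.32) and is lost without any 1 of unstimulated a, b, e or f, IFN-γ 1 or 2, or IL-4 1 (0.86 to 0.96). Of 17 tested ER chaperones and unfolded protein response genes, 2 have a higher and 7 a lower difference (median 0.02, from -0.13 without IL-4 3 to 0.04 without unstimulated f). The oxidase *Ero1l* rose 8.79-fold with IFN-γ and 1.63-fold with IL-4 (-2.43 ± 0.22, and -3.32 with counts corrected for the count limit), *Creld2* rose 2.09-fold with IFN-γ (-1.22 ± 0.22), and *Xbp1*, a factor eosinophils need to develop, fell 1.86-fold with IFN-γ (0.58 ± 0.18, lost without IL-4 3, 0.52), as did *Herpud1* at 1.73-fold (0.84 ± 0.19). *Psat1* has no called IL-4 response without any 1 of unstimulated f, IFN-γ 1 or 2, or IL-4 1, 2 or 3 (0.40 to 0.52) and in other fits.

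Of 18 tested alternative activation markers of macrophages, 6 rose with IFN-γ and 9 with IL-4, and 1 has a higher and 4 a lower difference (median 0.04, from -0.04 without unstimulated e to 0.13 without unstimulated f, and -0.02 with floor genes bounded). With counts corrected for the count limit the median is 0.20, and without genes near it 0.46, with 1 lower of 14. There are 3 higher without unstimulated e and 2 without IFN-γ 3. *Chil3* rose alike with both, 1.80-fold with IL-4 and 1.68-fold with IFN-γ (0.10 ± 0.23). The transglutaminase *Tgm2* rose 6.48-fold with IFN-γ and 1.53-fold with IL-4 (-2.08 ± 0.24), and *Klf4* rose 7.77-fold and 3.10-fold (-1.33 ± 0.58, called without unstimulated e, -1.79, and -0.66 without unstimulated d). *Retnla* fell 1.48-fold with IL-4 (-0.87 ± 0.26), a call lost without unstimulated a or c, IFN-γ 3 or IL-4 1 (-0.83 to -0.73), and its IFN-γ libraries are near the count limit. Of 16 tested classical activation markers, 10 rose with IFN-γ and 6 with IL-4, and 1 has a higher and 5 a lower difference (median -0.45). *Nos2*, the inducible nitric oxide synthase, is at 30.5, 38.9 and 60.3 CPM in unstimulated a to c and 558, 576 and 653 with IFN-γ, against 113, 130.3 and 137 in unstimulated d to f and 123, 112 and 126 with IL-4. The IFN-γ libraries are all above and the IL-4 libraries overlap, 13.7-fold against 0.946-fold (difference -3.86 ± 0.25, adjusted p = 1.2e-08). The itaconate enzyme *Acod1* rose 4.69-fold with IFN-γ (-2.41 ± 0.23), while *Il6* rose 4.74-fold with IL-4 and 2.23-fold with IFN-γ (1.09 ± 0.26) and *Tnf* fell 2.17-fold with IL-4 (-1.70 ± 0.38). *Tgm2* loses the call of its IL-4 response without any 1 of unstimulated d, or IL-4 1 or 2 (0.48 to 0.61), and *Retnla* has no called IL-4 response without any 1 of unstimulated c or e, IFN-γ 1 or 2, or IL-4 1, 2 or 3 (-0.63 to -0.41) and in other fits.

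Cytokine genes split as well, with 4 higher and 6 lower differences among 20 tested (median -0.37). *Il16*, a CD4 ligand, rose 2.29-fold with IL-4 and fell 2.06-fold with IFN-γ (2.24 ± 0.24, adjusted p = 2.9e-06). *Il18bp*, the decoy for IL-18, rose 5.44-fold and *Il15* 3.86-fold with IFN-γ only (-2.13 ± 0.18 and -2.09 ± 0.34), and the alarmin *Il33* went from 0.139 ± 0.240 to 6.28 ± 1.90 CPM with IFN-γ, at least 4.41-fold (difference of at least 2.33-fold). The Type 2 cytokine *Il13* fell 3.18-fold with IL-4 from 11.8 ± 1.72 to 3.71 ± 0.791 CPM (-2.28 ± 0.52), and *Il10* fell with both, 3.76-fold and 2.60-fold (-0.53 ± 0.63, not called). *Il19*, of the IL-10 family, rose 12.1-fold with IL-4 from 0.438 CPM (difference of at least 15.4-fold). *Il1b* rose alike, 1.82-fold and 2.05-fold (-0.17 ± 0.23). The death ligand *Tnfsf10* rose 2.51-fold with IL-4, with a difference of 1.10 ± 0.38 that is lost without any 1 of unstimulated a, c, d or e, IFN-γ 1 or 2, or IL-4 1, 2 or 3 (0.87 to 1.13). Among 18 tested cytokine receptors 1 has a higher and 6 a lower difference (median -0.41). The decoy *Il1r2* rose 15.05-fold with IFN-γ (-3.31 ± 0.35), *Csf2rb2* rose 1.87-fold and fell 1.54-fold with IL-4 (-1.53 ± 0.24), *Csf2rb* rose 1.44-fold with IFN-γ (-0.75 ± 0.19), and the IL-5 receptor gene *Il5ra* rose 1.52-fold with IL-4 (0.95 ± 0.19). Copies of *Csf2rb* and *Csf2rb2* are similar enough that reads may be shared. The difference of *Csf2rb* reached -1.195 in an alternative other than a left-out library. *Il10* has no called IFN-γ response without any 1 of unstimulated a, b or c, IFN-γ 2 or 3, or IL-4 1, 2 or 3 (-1.44 to -1.21) and in other fits, and *Csf2rb2* loses the call of its IL-4 response without any 1 of unstimulated e, or IL-4 1 or 3 (-0.62 to -0.36). *Csf2rb* has no called IFN-γ response without unstimulated a or IFN-γ 3 (0.43 to 0.44).

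Checkpoint and co-stimulatory genes gave 6 called differences among 14 tested, each lower (median -0.57), and without unstimulated e another gene is higher. *Cd274*, which encodes PD-L1 (ENSMUSG00000016496, chromosome 19, 29367455 to 29388095), is at 133, 128 and 204 CPM in unstimulated a to c and 1043, 1091 and 1046 with IFN-γ, and at 150.5, 104 and 175 in unstimulated d to f and 194, 190.4 and 167 with IL-4. It rose 6.80-fold with IFN-γ in every library, and with IL-4 (1.29-fold) the libraries overlap (difference -2.40 ± 0.26, adjusted p = 3.1e-06). The other PD-1 ligand, *Pdcd1lg2*, rose 8.59-fold with IL-4 and at least 4.17-fold with IFN-γ (difference not called). The collagen receptor *Lair1* rose 14.4-fold with IFN-γ and 1.60-fold with IL-4 (-3.17 ± 0.28). *Cd86* rose 2.07-fold and 1.31-fold (-0.66 ± 0.18, not called with all 18 libraries in the fit, -0.66, or at equal depth, -0.50), and *Cd40* rose alike (1.94-fold and 2.18-fold, 0.17 ± 0.24). *Cd200* has a difference of -1.20 ± 0.40, lost without any 1 of unstimulated a, b or f, IFN-γ 1 or 3, or IL-4 1 or 2 (-1.19 to -0.86). *Lair1* loses the call of its IL-4 response without unstimulated f or IL-4 1 (0.48 to 0.58) and in other fits, and *Cd86* has no called IL-4 response without any 1 of unstimulated a, c, d or e, IFN-γ 1, 2 or 3, or IL-4 1, 2 or 3 (0.34 to 0.41) and in other fits.

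A list of 16 surface markers was drawn from the study's own account of these samples, so its counts, 4 higher and 8 lower (median -0.74), are not independent evidence. *Cd101*, an inhibitory receptor, is at 11.1, 12.03 and 17.5 CPM in unstimulated d to f and 77.7, 60.1 and 78.9 with IL-4, and at 36.1, 38.9 and 22.9 in unstimulated a to c and 21.6, 26.5 and 29.9 with IFN-γ. IL-4 raised it 5.28-fold in all libraries and the IFN-γ libraries overlap theirs (difference 2.72 ± 0.31, adjusted p = 6.6e-06). *Cd34*, a sialomucin, rose 8.50-fold with IL-4 and fell 2.38-fold with IFN-γ (4.34 ± 0.43, adjusted p = 1.0e-06). Its difference reached 5.005 in an alternative other than a left-out library. The activation marker *Cd69* rose 4.10-fold with IL-4 only (2.08 ± 0.24). *Cd36*, a lipid scavenger receptor, fell 3.40-fold with IL-4 and rose 2.11-fold with IFN-γ (-2.84 ± 0.25). *Cd53* and *Ly6a* rose 2.80-fold and 3.14-fold with IFN-γ only (-1.68 ± 0.20 and -1.85 ± 0.19), and *Cd48* fell 2.22-fold (1.33 ± 0.20). *Cd34* has no called IFN-γ response without unstimulated a (-0.99).

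Siglecs and lectin receptors hold strong differences of both signs, 6 higher and 3 lower among 12 tested (median 0.69, and 0.46 without unstimulated a). The inhibitory *Siglece* (ENSMUSG00000030474, chromosome 7, 43651070 to 43660161) is at 63.2, 47.8 and 29.5 CPM in unstimulated a to c and 9.10, 6.75 and 3.99 with IFN-γ, and at 9.14, 3.79 and 7.14 in unstimulated d to f and 12.1, 13.7 and 15.5 with IL-4. It fell 6.96-fold and rose 2.12-fold without overlap (difference 3.88 ± 0.48, adjusted p = 1.4e-05). *Siglecf*, the eosinophil marker, fell 1.61-fold with IFN-γ and rose 1.31-fold with IL-4 (1.08 ± 0.18), and *Siglecg* fell with both, 5.15-fold and 1.55-fold (1.73 ± 0.17). *Clec12a*, a receptor for urate crystals, fell 9.79-fold with IFN-γ only (3.12 ± 0.29, adjusted p = 6.0e-07). *Clec4d* and *Clec4e*, which neighbour *Clec4n* in function, rose 1.96-fold and 1.52-fold with IFN-γ and fell 3.07-fold and 1.69-fold with IL-4 (-2.59 ± 0.21 and -1.36 ± 0.19). The β-glucan receptor *Clec7a* rose 2.24-fold with IL-4 and 1.31-fold with IFN-γ (0.77 ± 0.18). *Siglece* loses the call of its IL-4 response without any 1 of unstimulated e, or IL-4 1, 2 or 3 (0.77 to 1.16) and in other fits, and *Siglecf* has no called IL-4 response without any 1 of unstimulated c, d or f, IFN-γ 1, or IL-4 1, 2 or 3 (0.36 to 0.40) and in other fits. *Clec7a* loses the call of its IFN-γ response without any 1 of unstimulated b or c, or IFN-γ 1, 2 or 3 (0.30 to 0.44).

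Of 5 tested granule genes, 2 have a called difference, each higher (median 0.58, from 0.14 without unstimulated a to 1.25 without IFN-γ 3). The ribonuclease *Ear6* is at 132, 147 and 132 CPM in unstimulated d to f and 327, 364 and 350.1 with IL-4, and at 29.8, 46.6 and 34.1 in unstimulated a to c and 20.5, 19.7 and 16.6 with IFN-γ. That is a 2.53-fold rise and a 1.89-fold fall, without overlap (difference 2.26 ± 0.22, adjusted p = 1.2e-06). *Prg2*, major basic protein, rose 1.78-fold and fell 1.74-fold (1.63 ± 0.31). Of 5 tested Fc receptor genes, 2 have a called difference, each lower (median -0.31): *Fcgr4* rose 1.92-fold with IFN-γ and fell 2.21-fold with IL-4 (-2.08 ± 0.22), and the shared γ chain *Fcer1g* fell 1.40-fold with IL-4 (-0.86 ± 0.21). Among 10 tested chemoattractant receptors 3 have a higher and 3 a lower difference (median -0.23, and -0.12 without IFN-γ 3). The formyl peptide receptors *Fpr1* and *Fpr2* fell 3.38-fold and 2.69-fold with IL-4, and *Fpr2* rose 1.76-fold with IFN-γ (-1.68 ± 0.28 and -2.25 ± 0.30). *C5ar2*, a decoy for C5a, rose 2.43-fold with IL-4 and fell at least 1.87-fold with IFN-γ (difference of at least 4.53-fold), and the leukotriene receptor *Ltb4r1* fell 2.12-fold with IFN-γ (1.12 ± 0.21). *Prg2* has no called IFN-γ response without any 1 of unstimulated b or c, or IFN-γ 1 or 3 (-0.80 to -0.70), and *Fcer1g* loses the call of its IL-4 response without any 1 of unstimulated e, or IL-4 1 or 2 (-0.47 to -0.31) and in other fits. *Fpr2* has no called IFN-γ response without unstimulated b (0.62), and *C5ar2* loses the call of its IL-4 response without IL-4 2 (1.14). *C5ar2* has no called IFN-γ response without any 1 of unstimulated a or c, or IFN-γ 1, 2 or 3 and in other fits.

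Eicosanoid enzymes gave 4 higher and 3 lower differences among 12 tested (median 0.01, from -0.05 without IFN-γ 2 to 0.08 without unstimulated a), with 2 higher without IFN-γ 2. The median is 0.23 with counts corrected for the count limit and 0.41 without genes near it. *Ptgs2*, cyclooxygenase 2, rose 6.43-fold with IFN-γ and 2.07-fold with IL-4 (-1.64 ± 0.26), and *Ptges*, downstream of it, fell 2.65-fold with IL-4 (-1.57 ± 0.17). *Ltc4s*, which makes leukotriene C4, rose 3.71-fold with IL-4, with a difference of at least 4.33-fold over all 12 libraries. That call was lost without unstimulated a or IFN-γ 2, at log2 differences of 2.05 and 2.33, the former below the bound. *Lta4h* rose 1.52-fold with IL-4 and fell 1.33-fold with IFN-γ (1.01 ± 0.18). The abundant *Alox15* was called in neither response (-0.02 ± 0.20, and 0.36 with corrected counts). It is near the count limit in the IFN-γ set, where a change may be hidden. Of 14 tested adhesion genes, 3 have a higher and 5 a lower difference (median -0.60), with 3 lower of 9 without genes near the count limit. The tetraspanin *Cd9* rose 3.51-fold with IFN-γ and fell 1.62-fold with IL-4 (-2.51 ± 0.29, adjusted p = 6.4e-06, and -3.18 with corrected counts), *Itga4*, a chain of VLA-4, rose 1.32-fold and fell 1.64-fold (-1.12 ± 0.20), and *Itgax* rose 1.70-fold with IL-4 only (0.84 ± 0.23). *Lta4h* loses the call of its IFN-γ response without any 1 of unstimulated a or b, or IFN-γ 1 or 2 (-0.38 to -0.30), and *Cd9* has no called IL-4 response without any 1 of unstimulated e, or IL-4 1 or 3 (-0.71 to -0.48) and in other fits. *Itga4* loses the call of its IFN-γ response without any 1 of unstimulated a or b, IFN-γ 1, 2 or 3, or IL-4 1, 2 or 3 (0.32 to 0.44).

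Tissue repair factors split, with 4 higher and 6 lower differences among 15 tested. The median of 0.11 runs from 0.06 without IFN-γ 3 to 0.20 without unstimulated e, and is 0.49 without genes near the count limit and -0.30 with floor genes bounded. *Vegfa* (ENSMUSG00000023951, chromosome 17, 46016993 to 46032369) is at 18.2, 18.5 and 26.2 CPM in unstimulated a to c and 312, 439 and 550.4 with IFN-γ, and at 179.6, 178 and 130.5 in unstimulated d to f and 312, 311 and 269 with IL-4. It rose 20.5-fold and 1.83-fold, in every library of both (difference -3.49 ± 0.28, adjusted p = 1.4e-07). *Hbegf* rose 2.58-fold with IL-4 and fell 4.86-fold with IFN-γ (3.65 ± 0.54), *Tgfbi* and *Igf1* fell 6.25-fold and 3.05-fold with IFN-γ only (2.78 ± 0.20 and 2.20 ± 0.36), and *Edn1* rose at least 18.4-fold with IL-4, with a difference that is called only without unstimulated a, b or e, without IFN-γ 1, or in other fits. The matrix proteases *Mmp9* and *Mmp8* rose 1.74-fold and 3.89-fold with IFN-γ and fell 5.17-fold and 3.01-fold with IL-4 (-3.17 ± 0.28 and -3.55 ± 0.48, the latter -2.94 without unstimulated f), as did the matrix protein *Thbs1*, 4.57-fold and 1.56-fold (-2.84 ± 0.24). Their inhibitor *Timp1* rose 2.695-fold with IL-4 (0.92 ± 0.24, not called with all 18 libraries in the fit, 0.92). *Thbs1* has no called IL-4 response without unstimulated f or IL-4 3 (-0.53 to -0.51).

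Of 19 tested AP-1, EGR and KLF genes, 2 have a higher (4 without unstimulated d) and 6 a lower difference (median -0.46, and -0.26 to -0.15 without any 1 of unstimulated a or e, IFN-γ 1 or 2, or IL-4 3). *Maff* rose 15.1-fold, *Fosl1* 6.11-fold, *Atf3* 5.80-fold and *Egr2* 4.62-fold with IFN-γ only (-3.56 ± 0.58, -3.28 ± 0.67, -2.51 ± 0.26 and -1.65 ± 0.38, with *Fosl1* at -3.94 without unstimulated c), *Egr1* fell 4.52-fold with IFN-γ (2.53 ± 0.55, 3.23 without unstimulated e), and *Jun* rose 1.71-fold and 1.70-fold. Among 7 tested circadian and BHLHE genes 2 are called, each lower, with another higher without unstimulated e (median -0.27, from -0.60 without IFN-γ 1 to -0.10 without unstimulated e, and -0.38 with floor genes bounded): *Per1* rose 5.24-fold with IFN-γ (-1.93 ± 0.33) and *Bhlhe41* fell 10.4-fold with IL-4 (-2.88 ± 0.62). Of 15 tested NF-κB feedback genes, 1 has a higher (2 without unstimulated d or f or IL-4 3) and 7 a lower difference (4 without any 1 of unstimulated a, b or d, IFN-γ 2 or IL-4 1), with median -0.41. *Bcl3* rose 2.84-fold with IFN-γ only (-1.65 ± 0.22) and *Nfkb1* rose 1.56-fold with IL-4 only (0.93 ± 0.18). The deubiquitinase *Tnfaip3* rose with both, with IL-4 not without unstimulated f (0.48), and has a called difference (-0.64 ± 0.21), a call lost without any 1 of unstimulated a, b, d or e, IFN-γ 2 or 3, or IL-4 1 or 2 (-0.68 to -0.54). BCL2 family and survival kinase genes gave 4 higher and 5 lower differences among 15 tested (median 0.02, from -0.03 without unstimulated a to 0.20 without unstimulated d, and 3 lower without any 1 of unstimulated a or c, IFN-γ 1 or 3, or IL-4 3): *Mcl1* rose 1.54-fold with IFN-γ (-0.71 ± 0.20), *Bcl2a1a* and *Pim2* fell 2.11-fold and 2.47-fold (1.08 ± 0.17 and 0.99 ± 0.18), and *Bax* rose 1.39-fold with IFN-γ, with overlapping libraries, and fell 1.46-fold with IL-4 (-1.02 ± 0.23). *Jun* loses the call of its IL-4 response without any 1 of unstimulated f, or IL-4 1 or 2 (0.64 to 0.78) and in other fits, and its IFN-γ response has none without any 1 of unstimulated a, b or c, or IFN-γ 2 or 3 (0.63 to 0.83). *Bax* loses the call of its IL-4 response without any 1 of unstimulated f, or IL-4 1 or 3 (-0.55 to -0.45), and its IFN-γ response has none without any 1 of unstimulated a or c, IFN-γ 1 or 2, or IL-4 1, 2 or 3 (0.36 to 0.48).

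**Figure D4:**
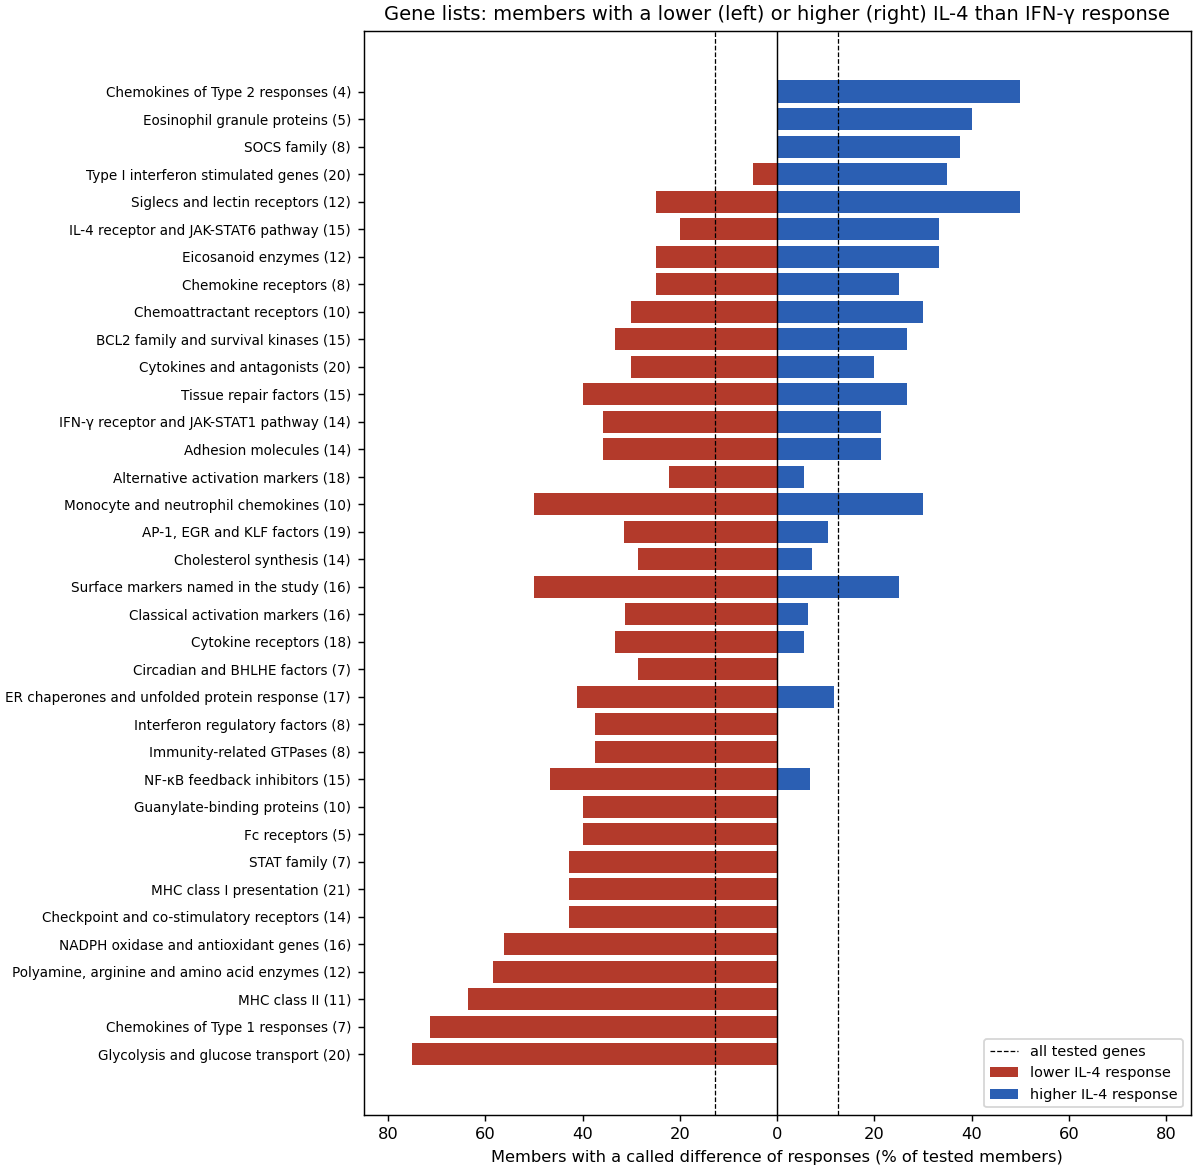
Percent of tested members of each gene list with a called difference, lower IL-4 response to the left (red) and higher to the right (blue). Dashed lines mark the percent over all 10913 tested genes, 12.7 lower and 12.5 higher. Glycolysis has 15 of 20 members on the left.

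Genes that responded alike to both cytokines were taken where the 95% interval of the difference lies within a factor of 2, which holds for 137 of the 257 genes that moved the same way (96 up, 41 down) and for 3591 of all 10913. The largest shared rises after *Socs1* and the mitochondrial protein gene *AA467197* (3.47-fold with IL-4 and 4.94-fold with IFN-γ, called as different without unstimulated e, -0.59) are *Rnf19b*, *Jdp2* and *Gpaa1*. *Rnf19b*, a ubiquitin ligase, rose 2.22-fold and 2.67-fold, the AP-1 repressor *Jdp2* 2.34-fold and 2.63-fold, and *Gpaa1*, of the GPI transamidase, 2.12-fold and 2.92-fold (called as different without IFN-γ 1, -0.58). Shared falls are led by *Asb2*, a ubiquitin ligase adaptor that fell 2.80-fold with IL-4 and 3.20-fold with IFN-γ, and *Rtn4ip1*, of coenzyme Q synthesis, at 2.18-fold and 2.27-fold. *Gngt2*, a G protein γ subunit, fell 2.30-fold and 1.73-fold (called as different without unstimulated e, -0.59), the MAP kinase phosphatase *Dusp1* 1.91-fold and 1.90-fold, and guanine deaminase, *Gda*, 1.94-fold and 1.85-fold.

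The largest positive differences belong to genes of low count. *Grm6*, a glutamate receptor (ENSMUSG00000000617, chromosome 11, 50850685 to 50866208, with an antisense gene over its exons), is at 0.277, 0.329 and 0.939 CPM in unstimulated d to f and 12.3, 13.2 and 9.80 with IL-4, and at 5.21, 6.38 and 6.66 in unstimulated a to c and 2.27, 3.12 and 1.99 with IFN-γ. All IL-4 libraries are above and all IFN-γ libraries below their unstimulated ones, 20.9-fold up and 2.40-fold down (difference 5.65 ± 0.60, adjusted p = 2.5e-06, and 6.36 without unstimulated f). *Atp8b5*, a phospholipid flippase, rose 4.002-fold and fell 17.9-fold (6.16 ± 0.87, 7.78 without IFN-γ 1), *Mapt*, the microtubule protein tau, 6.61-fold and 8.74-fold (5.85 ± 0.69, 5.23 without unstimulated a), and the transcription factor *Myb* 8.04-fold and 5.15-fold (5.37 ± 0.63, 6.33 without IFN-γ 1). For genes at 3 counts or fewer in a whole group only a lower bound can be given: IL-4 over IFN-γ folds of at least 52.6 for the ER inhibitor *Svip*, at least 24.1 for the noncoding *AI463229*, at least 21.2 for the exchange factor *Arhgef39*, at least 17.02 for the noncoding *Gm6116*, at least 10.9 for *Aifm3*, a pro-apoptotic oxidoreductase, and at least 8.65 for *Gm12454*, which lies antisense to *Car9*. These bounds are for all 12 libraries together. With 1 library left out the log2 difference of *Svip* falls as low as 5.416, below its bound. *Grm6* has no called IFN-γ response without any 1 of unstimulated a, b or c, IFN-γ 1, 2 or 3, or IL-4 1 or 2 (-1.48 to -1.15) and in other fits, and *Atp8b5* loses the call of its IL-4 response without IL-4 3 (1.72).

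The largest negative differences after *Cxcl9*, *Ppbp* and *Clec4n* are *Clic5*, *Akr1b8*, *Treml4*, *Serpinb1b* and *Ptgr1*, with *Cxcl3*, and the RNA *Rn7sk*, at least 22.8-fold. *Clic5*, a chloride channel protein, rose 43.1-fold with IFN-γ from 3.73 ± 2.30 to 175 ± 27.9 CPM and was level with IL-4 (-5.55 ± 0.40, adjusted p = 3.9e-08). The reductases *Akr1b8* and *Ptgr1* rose 4.86-fold and 4.06-fold with IFN-γ and fell 7.47-fold and 4.58-fold with IL-4 (-5.18 ± 0.45 and -4.22 ± 0.31). *Treml4*, a receptor for dead cells, rose 3.08-fold and fell 6.88-fold (-4.41 ± 0.80, -5.52 without IL-4 2), and the protease inhibitor *Serpinb1b* fell 6.13-fold with IL-4 (-4.26 ± 1.01, -5.32 without IL-4 1). Where 1 response lies at 3 counts or fewer in all 6 libraries no difference in fold is given. *Smc1b*, a meiotic cohesin, rose 4.31-fold with IL-4, the noncoding *Gm48832* 5.01-fold, *Pparg* as above, *Gm37962* and *Gm47652* were not called with IFN-γ (-0.78 and -0.29), and the phosphatase *Pgam5* stood at 30.6 ± 5.65 and 36.4 ± 3.63 CPM in the IFN-γ set only. The call for *Gm37962* is lost without any 1 library but unstimulated b or f. That for *Gm47652* is lost without any 1 but unstimulated b, IFN-γ 1 or IL-4 2, and that for *Gm48832* without any 1 of unstimulated a, c or e, IFN-γ 1, 2 or 3, or IL-4 1. *Pgam5* is not called at equal depth or with each set fitted on its own. *Treml4* loses the call of its IFN-γ response without any 1 of unstimulated a, b, c or f, IFN-γ 1, 2 or 3, or IL-4 1 (1.47 to 1.78) and in other fits, and *Serpinb1b* has no called IL-4 response without IL-4 2 (-2.40).

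STAT binding motifs in promoters are described without a test. The GAS motif TTCNNNGAA occurs in 8.3% of 32851 promoters and the STAT6 motif TTCNNNNGAA in 6.95%, and among promoters of tested genes the shares are 6.79% and 5.59%. Genes raised by IL-4 have 7.4% and 7.74%, genes raised by IFN-γ 7.76% and 5.65%, and genes raised by both 12.8% and 9.09% (187 promoters). By the sign of the difference the shares are 7.01% and 6.29% for higher and 6.67% and 5.2% for lower. Genes that rose with IL-4 and fell with IFN-γ have 6.96% and 6.96% (230 promoters), and those with the reverse pattern 9.95% and 4.52% (221). Windows of 30 bases from RefSeq GRCm38.p6 show the GAS motif at *Irf1* (chr11:53769914-53769943, plus strand) and *Irf8* (chr8:120736177-120736206, plus strand), and the STAT6 motif at *Clec7a* (chr6:129472891-129472920, minus strand) and *Ccl17* (chr8:94810289-94810318, plus strand). These 4 windows are examples and do not establish a pairing of motif and cytokine. *Irf1* and *Clec7a* rose with both cytokines, and the difference of *Ccl17* is not called. GAS motifs also lie at *Ccl17*, *Cish* and *Batf3*, and STAT6 motifs at *Gbp3*, *Cd53* and *Ifit2*.
Irf1 GAS: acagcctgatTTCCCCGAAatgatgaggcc
Irf8 GAS: caaaagtgatTTCTCGGAAagagagcgctt
Clec7a STAT6: catttcagttTTCTTCAGAAgttacagcct
Ccl17 STAT6: cgagtgaccaTTCTCTGGAAagccacaaac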

How the data were processed

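Gene counts of 12 bulk RNA libraries were used as the authors deposited them. Per the paper's methods and the submitters' notes, libraries were made by CEL-Seq2, reads were mapped to GRCm38 with TopHat2 2.1.0, and uniquely mapped reads were counted with HTSeq 0.6.1. fastp 0.20.1 and STAR 2.7.2a are also named, without saying for which libraries, and whether molecular tags were collapsed is not stated. In the IFN-γ set, counts assigned to no gene equal 20.8 to 37.6% and ambiguous ones 1.84 to 2.20%, and both were left out. The other set lists none.

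One edgeR 4.0.16 fit (R 4.3.3) of the raw counts had 4 group means, TMM scaling within each set and filterByExpr (minimum count 10), and kept 10913 of 54232 genes. Differences were tested with the quasi-likelihood F test of edgeR, p-values were adjusted by the Benjamini-Hochberg method over all tested genes, and an adjusted p under 0.05 is a call, with no threshold on fold. A fold against a group at 3 counts or fewer in each library is given as a lower bound. Where it changes a list's median, the median is given also with such genes bounded, that is at that bound, or left out where no bound exists. Alternatives used DESeq2 1.42.0, limma 3.58.1, other scalings, filters and depths, the replicate block, and each library left out in turn. The correction for the count limit takes 4096 molecular tags as the ceiling per gene in the IFN-γ set. It assumes that tags were collapsed there, which is not stated. The code was tested on simulated data. Gene positions are GRCm38 with GENCODE M21 annotation. Promoters span 250 bases before to 50 after a start. Transcripts over 95% identical across 200 bases count as near-identical copies.

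Genes are named by 5 rules: the 10 largest differences of each sign among called genes with more than 3 counts in every library of at least 1 group of each set; the 6 smallest adjusted p-values in each class of opposite direction; the 5 highest and 5 lowest mean responses among genes moving alike with the 95% interval of the difference within a factor of 2; any member of the gene lists or cell type markers; and up to 5 of each sign whose other response is at or under 3 counts in all 6 libraries. Lists and members were chosen with earlier results of these data known. A few members withheld for evaluation are not reported here, and list counts include them.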

Additional observations from a re-analysis of the deposited data

Results flagged for a closer look

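Of 432 genes that moved in opposite directions (285 without IL-4 1), the 6 with the smallest adjusted p in each direction are given here, with every stimulated library above its unstimulated ones in 1 set and below them in the other, and the difference of the responses was itself tested in the joint fit. In log2 units the IL-4 response minus the IFN-γ response is 4.92 for *Cst7*, 4.32 for *Serpina11*, 4.28 for *Sytl1*, 3.87 for *Mylk3*, 3.58 for *Specc1* and 3.40 for *Setdb2*. It is -5.70 for *Clec4n*, -4.52 for *Cxcl3*, -4.07 for *Slc7a11*, -3.82 for *Marco*, -3.72 for *Prdx1* (-4.43 with counts corrected for the count limit) and -2.42 for *Cyb5a*. The IL-4 rise of *Sytl1* is not called without any 1 of unstimulated b, e or f, IFN-γ 1, 2 or 3, or IL-4 1, 2 or 3 (0.53 to 0.70) and in other fits. Stimulus and set coincide, so what the set adds to each response was not tested.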

How the results depend on the processing

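Of the 2745 called differences, every one tested again kept its sign under the other scalings, tools and filters, the replicate block, all 18 libraries in the fit, each library left out, and 2 alternatives chosen after seeing the data (counts corrected for the count limit, and each set fitted on its own). With the filter in each set 2532 of them were tested, with at least 10 counts in every library 2141, and without genes near the count limit 2680. The exceptions are thinning to equal depth, where 2621 of 2622 tested kept it, and treating the 6 unstimulated libraries as 1 group, where 2333 did. Called differences number 2557 with DESeq2, 2832 with limma voom, 2656 with no filter, 2251 at equal depth, 2810 with corrected counts and 3019 with each set on its own. Of these calls 49.5% are higher, 45.4% with TMM over all 12 libraries and 57.7% at a factor of 2 or more.

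Requiring a factor of 2 leaves 742 lower differences, 595 IL-4 calls, 1162 IFN-γ calls, 113 genes moving in opposite directions and 68 in the same, since the threshold removes smaller effects. With the 6 unstimulated libraries as 1 group there are 486 IL-4 calls, 1471 IFN-γ calls, 82 opposite and 109 same, and the cause was not tested. With each set on its own, 1092 IL-4 and 3288 IFN-γ genes are called, the spread (biological coefficient of variation) being 0.181 in the IL-4 set, 0.11 in the IFN-γ set and 0.151 jointly.

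Leaving out 1 library gives 975 to 1491 higher and 1036 to 1511 lower differences, 1096 (without IL-4 1) to 2064 IL-4 calls, 1702 (without unstimulated a) to 3175 IFN-γ calls, 285 (without IL-4 1) to 504 opposite and 190 to 288 same. Each of these fits has 1 library fewer, and the cause of the lower and of the higher counts was not tested.

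The IL-4 and IFN-γ libraries share only a number. Deviations of libraries with the same number correlate at -0.0488, 0.0296 and 0.00497, and not every library correlates best with its own number. With the number as a replicate block 2351 differences are called, 1157 of them higher, with 1319 IL-4 and 2267 IFN-γ calls, 327 opposite and 205 same.

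For 234 genes checked one by one (every gene whose difference the text gives), 5732 results are on the same side of the threshold in the same direction, 205 are no longer called and 36 became called. In none of the alternatives run on them did a called difference change sign. The alternative with the 6 unstimulated libraries as 1 group was not run on them. There 2333 of the 2745 called differences kept their sign. At equal depth 222 of the 234 could be tested and 11 lost their call.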
